A study of Mus musculus with 67 samples.

Results

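Genes of protein folding in the endoplasmic reticulum (ER) and of its stress response, 10 in all, were followed over the day in mouse liver: Hspa5, Hsp90b1, Hyou1, Dnajb9, Dnajc3, Sdf2l1, Pdia4, Creld2, Manf and Herpud1. They are the rows of the deposited FPKM table whose gene symbol is one of these names, 10 of 45808 gene rows, and all 10 were found. FPKM scales a gene's reads to its length and to the reads of its library. The livers came from C57BL/6 mice aged 24 weeks, kept on high-fat food for the last 12 weeks, and polyA RNA was sequenced in 67 libraries. Each mouse ate either within a daily window (time-restricted feeding, TRF) or at any hour (ad libitum, AL).

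The groups were Bmal1LKO (Bmal1-liverKO, the clock activator gene Arntl deleted in liver) under TRF and AL, with 6 libraries each. CryDKO mice lacked both clock repressor genes Cry1 and Cry2 (Cry1Cry2 double KO), and ReverbLDKO mice lacked the clock repressors Rev-erb alpha and beta in liver (genes Nr1d1 and Nr1d2), with 8 libraries under each feeding in both genotypes. WT had 11 libraries under TRF and 12 under AL. Times are zeitgeber times (ZT, hours). WT had 2 libraries at each of ZT4, 8, 12, 16, 20 and 24, apart from 1 under TRF at ZT12, Bmal1LKO had 1 at each of these times, and the other mutants had 1 every 3 h from ZT3 to ZT24. The sources used here do not state the feeding hours or the driver of the liver deletions. The labels do not say whether libraries are separate mice, so p-values measure the spread between these libraries.

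The ER folds secreted proteins, and hepatocytes export a large amount of them. When unfolded proteins accumulate, the sensors IRE1, PERK and ATF6 are set free from the chaperone BiP and raise transcription of chaperones, of disulfide isomerases and of genes for ER-associated degradation (ERAD). In mouse liver these genes are known to follow feeding and to show rhythms shorter than a day. Splicing of Xbp1, which marks IRE1 activity, cannot be read from values per gene.

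The promoters are shown because several of them hold the ER stress element, the classical site for ATF6 and NF-Y. Promoter sequences from RefSeq on GRCm38.p6 matched 8 of the 10 genes, and Manf and Hyou1 are named only. Among the 300 bases from 250 before to 50 after the start, the element (CCAAT, then 9 bases of any kind, then CCACG, on either strand) was present in 4 of the 8 (Hspa5, Hsp90b1, Dnajc3 and Creld2), against 0.119% of 32851 promoters. The shorter element (ATTGG, 1 base of any kind, CCACG) was in the Herpud1 promoter, against 0.0365% of all. The palindrome CACGTG, bound by clock activators among other factors, was in the Dnajb9 promoter, against 7.15% of all, and TGACGTGG, the UPR element, was in none of the 8, against 0.676% of all. No match of 1 motif overlapped another. The Pdia4 and Sdf2l1 windows held none of these letters. A match is a description of the letters and not a shown binding site.
The 250 bases before the start follow, 5′ to 3′ along the gene, with the ER stress element in capitals (in Herpud1 the shorter element). Hsp90b1 has 1 match on each strand. A match on the minus strand reads CGTGG first and ATTGG last.
Hspa5 (chr2:34771840-34772089, plus strand): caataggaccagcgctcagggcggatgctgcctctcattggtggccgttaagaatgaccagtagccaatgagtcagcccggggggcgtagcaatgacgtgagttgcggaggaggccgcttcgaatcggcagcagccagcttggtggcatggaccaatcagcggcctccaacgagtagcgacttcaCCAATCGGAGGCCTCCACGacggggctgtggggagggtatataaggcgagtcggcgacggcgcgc
Hsp90b1 (chr10:86705445-86705694, minus strand): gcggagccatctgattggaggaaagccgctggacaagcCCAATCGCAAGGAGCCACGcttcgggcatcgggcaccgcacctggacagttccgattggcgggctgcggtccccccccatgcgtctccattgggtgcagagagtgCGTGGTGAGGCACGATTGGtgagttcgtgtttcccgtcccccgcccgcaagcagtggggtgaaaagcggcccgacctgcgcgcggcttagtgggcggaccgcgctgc
Dnajc3 (chr14:118937682-118937931, plus strand): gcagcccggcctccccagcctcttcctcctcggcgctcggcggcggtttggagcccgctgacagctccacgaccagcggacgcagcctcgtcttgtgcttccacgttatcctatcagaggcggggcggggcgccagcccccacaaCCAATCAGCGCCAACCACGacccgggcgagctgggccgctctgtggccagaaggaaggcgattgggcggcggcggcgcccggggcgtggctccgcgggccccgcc
Creld2 (chr15:88819396-88819645, plus strand): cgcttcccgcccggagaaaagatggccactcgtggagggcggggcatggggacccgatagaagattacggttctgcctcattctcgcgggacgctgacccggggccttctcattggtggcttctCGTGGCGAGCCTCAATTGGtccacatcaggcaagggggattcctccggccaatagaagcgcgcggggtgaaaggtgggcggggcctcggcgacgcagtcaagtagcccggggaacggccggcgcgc
Herpud1 (chr8:94386179-94386428, plus strand): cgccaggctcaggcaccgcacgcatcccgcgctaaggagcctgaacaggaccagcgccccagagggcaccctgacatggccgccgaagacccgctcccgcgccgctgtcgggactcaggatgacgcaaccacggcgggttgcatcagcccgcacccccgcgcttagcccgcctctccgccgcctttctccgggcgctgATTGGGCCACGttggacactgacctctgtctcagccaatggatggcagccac
The first base of the element lay 65 bases before the start in Hspa5 (-65), and at -105 in Dnajc3, -126 in Creld2, -212 and -107 in Hsp90b1 and -52 in Herpud1. The start here is that of RefSeq and can differ from the gene positions given below, which come from another annotation. In Hspa5 and Hsp90b1 the printed window partly overlaps the gene as placed there, and the Hspa5 element lies within it.

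Libraries held 5.39 to 35.07 M recovered reads (median 14.11 M), and the smallest number of reads behind a member was 68, for Sdf2l1. The hepatocyte marker Alb (albumin) was at 9590 to 66750 FPKM. The summed FPKM of 7 hepatocyte markers differed between groups. Under AL it ran from 28364 to 44118 in Bmal1LKO and 41225 to 47793 in ReverbLDKO, below the 49863 to 67578 of WT. CryDKO AL, at 45315 to 66409, overlapped WT AL. Under TRF it was 27507 to 35814 in Bmal1LKO, below the 43096 to 62353 of WT, and CryDKO and ReverbLDKO overlapped WT. Transcripts of the deleted genes did not check the labels, since values per gene do not resolve the deleted exons. Arntl had a median of 3.18 FPKM (2 to 7.09) in Bmal1LKO and 7.29 FPKM (0.416 to 12.6) in WT. Cry1 and Cry2 had medians of 10.2 and 2.73 FPKM in CryDKO and of 10.6 and 3.23 FPKM in WT. In ReverbLDKO the medians of the deleted genes were higher than in WT. Nr1d1 had a median of 31.7 FPKM (4.82 to 71.8) in ReverbLDKO and 2.18 FPKM (0.122 to 33.3) in WT. Nr1d2 had 17.9 FPKM (7.76 to 28.7) in ReverbLDKO and 8.56 FPKM (1.7 to 39.1) in WT. Arntl had a median of 11.8 FPKM (9.17 to 18.2) in ReverbLDKO. Since the deleted exons are not resolved, the Nr1d1 and Nr1d2 values do not test the label. The ranges overlapped for all 5 genes, and the groups are named by their labels alone. In 10 libraries the summed FPKM of 10 pancreas acinar cell markers (digestive enzymes) exceeded 10, among them all 4 WT libraries at ZT16 (1223 and 121.1 under TRF, 3828 and 1451 under AL), and the group medians were 0.16 to 1. Where it matters, results are also given without these 10 libraries, or without the 4 WT ZT16 ones, which was chosen after seeing the data. GC-rich genes were lower relative to others in WT TRF libraries, with slopes of -1.05 to 0.14 log2 per 10 points of GC, than in WT AL libraries, with slopes of 0.03 to 0.51. The acute phase gene Saa1 was at 9195.8 to 16118.9 FPKM in 3 libraries and at 41908 FPKM in CryDKO TRF at ZT3, against a median of 581.4 FPKM. The ratio of mt-Nd6, on the other strand of the mitochondrial genome, to mt-Nd5 also moved with group. It was 0.63 to 2.56% in ReverbLDKO TRF and 8.40 to 15.02% in ReverbLDKO AL. In WT it was 5.87 to 35.77% under TRF and 0.55 to 3.06% under AL. In Bmal1LKO it was 8.36 to 16.28% under TRF and 8.61 to 13.02% under AL, and in CryDKO 3.91 to 8.47% and 5.09 to 6.35%. Under AL it separated every mutant from WT, and under TRF ReverbLDKO from WT. What moved this ratio, strand handling or another step, was not tested.

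All 10 genes were above 6 FPKM in every library. Hspa5, which encodes BiP, the main ER chaperone of the Hsp70 family, lies on chromosome 2 (34771970 to 34777547, plus strand, GRCm38). It had a lowest, median and highest value of 131.5, 253.7 and 705.3 FPKM in Bmal1LKO TRF and of 156.6, 229.5 and 584.9 FPKM in Bmal1LKO AL. In CryDKO it had 118.1, 305.6 and 717.5 FPKM under TRF and 109.5, 184.3 and 391 FPKM under AL. In ReverbLDKO the values were 94.78, 315.4 and 489.8 FPKM under TRF and 133.5, 159.3 and 245.2 FPKM under AL. WT spread more widely than any mutant, with 132.4, 372.7 and 2281 FPKM under TRF and 122.7, 317.7 and 850.9 FPKM under AL. The highest value fell at ZT16 or ZT18 in 7 of the 8 groups and at ZT24 in ReverbLDKO TRF. All groups overlapped, and ReverbLDKO AL had the narrowest range, 1.84-fold from lowest to highest, against 17.2-fold in WT TRF.

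**Figure D1:**
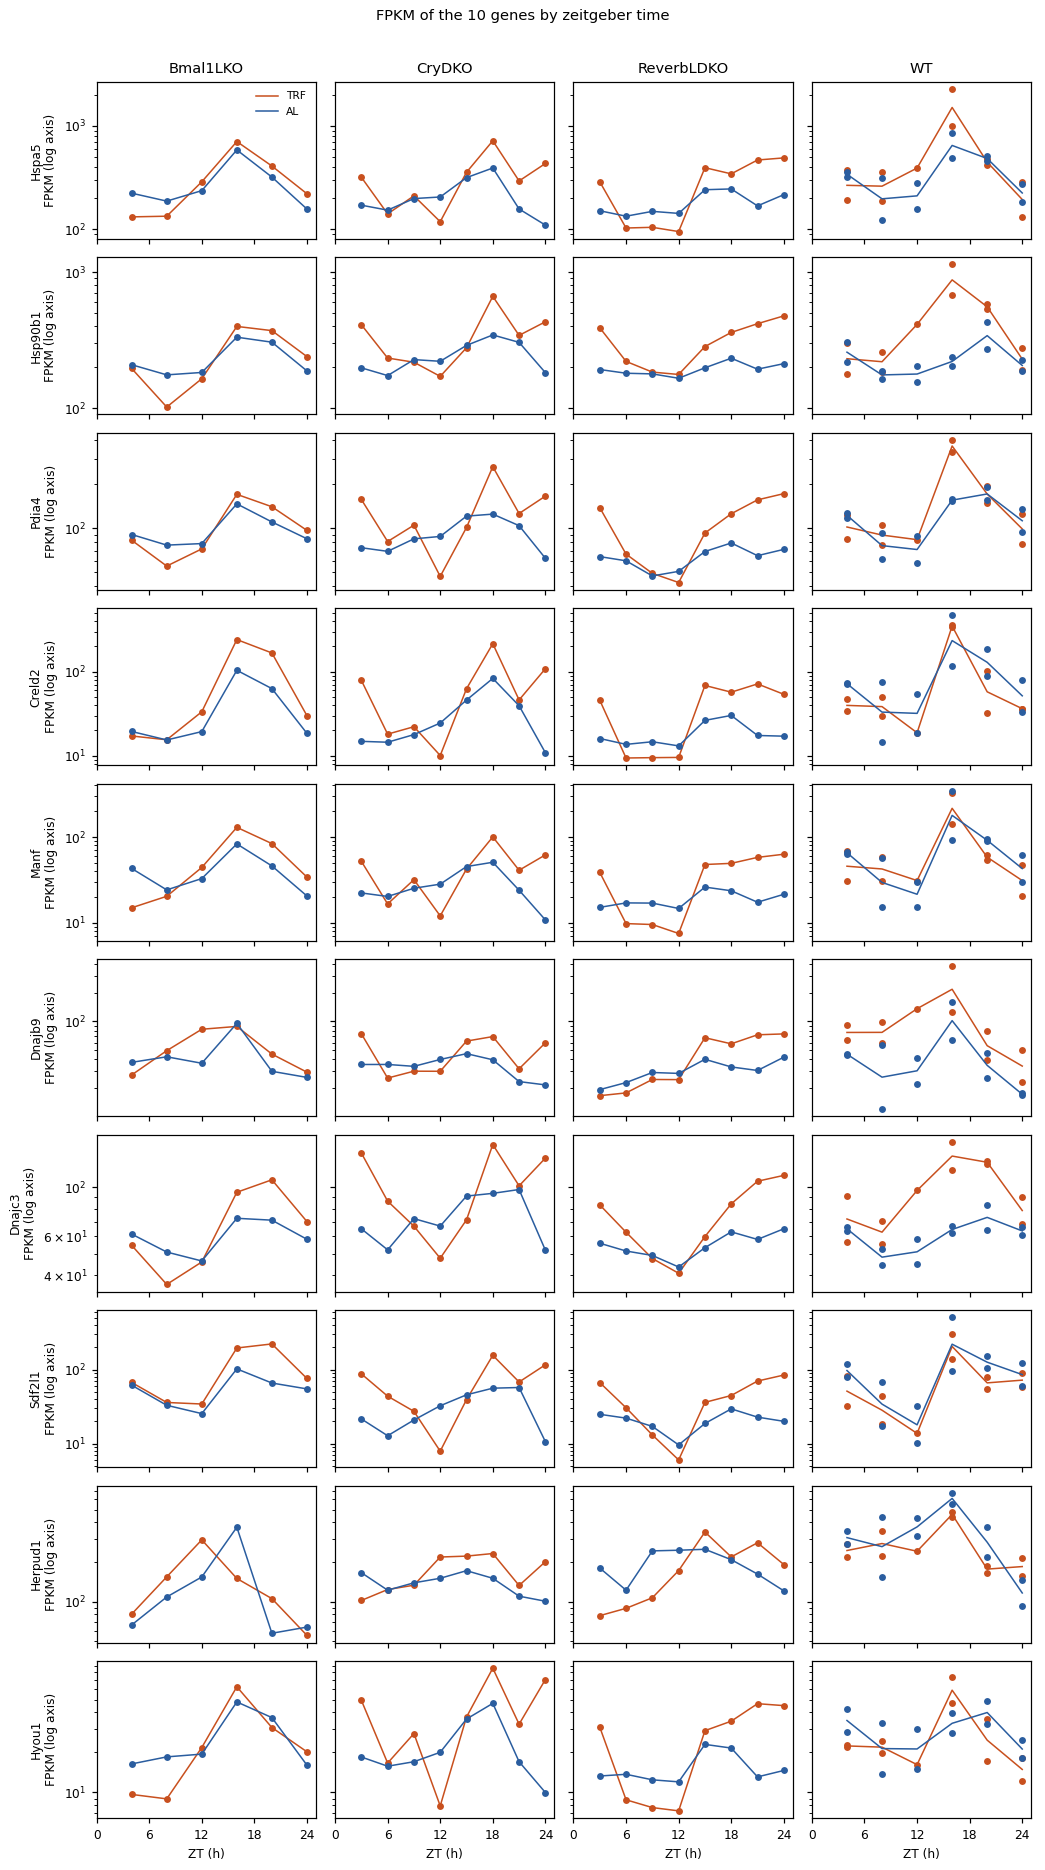
FPKM (log axis) of each of the 10 genes (rows) against zeitgeber time in hours, in Bmal1LKO, CryDKO, ReverbLDKO and WT (columns), for TRF and AL. Points are libraries and lines join the means of a time, and the ReverbLDKO AL lines run nearly flat, with Hspa5 between 133.5 and 245.2 FPKM.

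The other chaperones differed in level and in how far they moved. Hsp90b1 (GRP94, the ER Hsp90 chaperone) was about as high as Hspa5, with a median of 225.2 FPKM over the 67 libraries against 273.1 FPKM. Hyou1 (GRP170, a nucleotide exchange factor of BiP) had the lowest median of the 10, 21.78 FPKM, and ran from 7.27 to 85.99 FPKM. The co-chaperones of BiP, Dnajb9 (ERdj4) and Dnajc3 (p58IPK), had medians of 40.02 and 66.09 FPKM, and Dnajc3 moved least of the 10, 4.43-fold between its lowest and highest library. Sdf2l1, which works with BiP and its partner ERdj3, moved most, 84.99-fold from 6.01 to 510.6 FPKM, followed by Creld2 (ER stress-inducible, isomerase-like), 49.59-fold from 9.42 to 467 FPKM. Manf, a secreted protein that binds BiP, ran from 7.48 to 346.4 FPKM, Pdia4 (ERp72, a disulfide isomerase) from 42.39 to 403 FPKM, and Herpud1 (Herp, a membrane component of the HRD1 complex of ERAD) from 55.22 to 673.8 FPKM. On GRCm38, Hsp90b1 lies at chr10:86690209-86705509 (minus strand), Hyou1 at chr9:44379490-44392369 (plus), Dnajb9 at chr12:44205559-44210326 (minus), Dnajc3 at chr14:118937976-118981697 (plus) and Sdf2l1 at chr16:17130138-17132383 (minus). Pdia4 lies at chr6:47796141-47813430 (minus), Creld2 at chr15:88819646-88826683 (plus), Manf at chr9:106838312-106891979 (minus) and Herpud1 at chr8:94386438-94395377 (plus). Manf and Hsp90b1 share exon bases with a gene on the opposite strand (312 and 415 bases), and Dnajb9 shares 14 bases with Mir5627, so the reads of Manf and Hsp90b1 cannot be told apart from those of 4930524O07Rik or Dcaf1 and of 1810014B01Rik without the strand setting.

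Most of the genes moved together and Herpud1 largely apart. Over the 67 libraries, Pearson's r of a gene with the mean of the other 9 was 0.97 for Hspa5, 0.94 for Manf and Pdia4, 0.93 for Creld2, 0.85 for Hyou1, 0.80 for Hsp90b1, 0.78 for Sdf2l1, 0.74 for Dnajc3 and 0.70 for Dnajb9, against 0.40 for Herpud1. The 45 pairs had a median r of 0.70, with the highest at 0.95 (Hspa5 and Manf) and the lowest at 0.05 (Dnajc3 and Herpud1). These are descriptions, since the genes share libraries. Among the non-member genes most like the mean of the 10 over the libraries were Dnajb11 (ERdj3, r = 0.88), Stip1 (0.86), Morf4l2 (0.84), Slc30a5 and Pdia3 (0.83 each), and Ostc and Tmed3 (0.82 each). With group means taken out, the first were Stip1 (0.90), Morf4l2 (0.89), Dnajb11 (0.86), Syvn1 (0.86), Serp1 and Ubxn4 (0.85 each), and Hspa13 and Ahsa2 (0.84 each).

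The genes were lower in the livers labelled ReverbLDKO than in WT. Averaged over the day and both feedings, all 10 passed the test as lower in ReverbLDKO, against 27.7% of the 9955 genes tested, with a median difference of -0.70 on the log2(FPKM + 1) scale against 0.01 over all genes. In CryDKO 6 of 10 passed as lower, against 31% of all genes, with a median of -0.57 against 0.02. In Bmal1LKO 4 of 10 passed as lower, against 7.66% of all genes, with a median of -0.37 against 0.07. None of the 10 passed as higher in Bmal1LKO, CryDKO or ReverbLDKO, against 19.7, 34.4 and 30.1% of all genes. The members were chosen with earlier results of these data known. Counts set against all genes, here and below, are therefore descriptions and not independent support. The 3 genotype comparisons share the WT libraries, so they are not independent. The ratio of mt-Nd6 to mt-Nd5 also separated the mutants from WT under AL, and ReverbLDKO from WT under TRF. Its part in the differences was not tested. In bulk liver, fewer cells of a type and less RNA per cell cannot be told apart. Hepatocyte marker sums were also lower than in WT in Bmal1LKO under both feedings and in ReverbLDKO under AL. Their part in the differences was not tested.

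Creld2 had a lowest, median and highest value of 9.42, 49.76 and 71.49 FPKM in ReverbLDKO TRF and of 18.78, 36.37 and 360.8 FPKM in WT TRF. Under AL it had 13.11, 16.58 and 30.18 FPKM in ReverbLDKO and 14.47, 74.53 and 467 FPKM in WT. The highest WT libraries lay far above every ReverbLDKO library, while the lowest values overlapped. The difference was -1.45 ± 0.29 (SE, 16 against 23 libraries, adjusted p = 5.74e-05). Manf differed by -1.32 ± 0.25 (adjusted p = 2.28e-05) and Sdf2l1 by -1.29 ± 0.28 (adjusted p = 0.000189).

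Of the core chaperones, Hspa5 differed by -0.82 ± 0.18 in ReverbLDKO (adjusted p = 0.000256), Hyou1 by -0.55 ± 0.18 (adjusted p = 0.00797) and Hsp90b1 by -0.27 ± 0.11 (adjusted p = 0.0275). The isomerase Pdia4 differed by -0.69 ± 0.13 (adjusted p = 2.51e-05). Of the co-chaperones, Dnajb9 differed by -0.71 ± 0.21 and Dnajc3 by -0.26 ± 0.08 (adjusted p = 0.00395 and 0.0036). Herpud1, the degradation gene, differed by -0.66 ± 0.15 (adjusted p = 0.000388). All 10 differences were below 0 within TRF, with a median of -0.70, and within AL, with a median of -0.84, and 7 passed in each. No share of all genes is given for the tests within a feeding.

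The differences were smaller without WT at ZT16. Without the 10 libraries with pancreas transcripts, or without the 4 WT ZT16 ones, 7 of 10 still passed in ReverbLDKO (without the 10, a median of -0.50), against 17.5 and 20.4% of all genes lower, and Hsp90b1, Dnajb9 and Hyou1 did not. With all libraries scaled to the same FPKM sum, the median of all genes stood at 0.21 in Bmal1LKO, 0.16 in CryDKO and 0.21 in ReverbLDKO, and the median of the 10 genes at -0.19, -0.38 and -0.45. Hsp90b1 and Dnajc3 were then at -0.01 each in ReverbLDKO and 7 of 10 passed as lower, against 12.2% of all genes lower and 51.9% higher. In that scaling 3.1% of all genes were lower and 46.7% higher in Bmal1LKO, and 20.5 and 46.3% in CryDKO. Hspa5, Pdia4, Creld2, Manf, Sdf2l1 and Herpud1 passed as lower in ReverbLDKO under all 79 settings tried.

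In Bmal1LKO, Herpud1 showed the greatest difference of the 10. It had a lowest, median and highest value of 55.22, 127.5 and 294.8 FPKM in Bmal1LKO TRF and of 157.7, 220.8 and 482.7 FPKM in WT TRF. Under AL it had 57.31, 87.29 and 367.9 FPKM in Bmal1LKO and 92.95, 329.5 and 673.8 FPKM in WT. Most Bmal1LKO libraries lay below the WT medians, and the ranges overlapped. The difference for Herpud1 was -1.26 ± 0.17 (12 against 23 libraries, adjusted p = 7.58e-08), while Hsp90b1 and Pdia4 differed by -0.37 ± 0.12 and -0.37 ± 0.14 (adjusted p = 0.014 and 0.0434) and Dnajc3 by -0.28 ± 0.08 (adjusted p = 0.0108). Hspa5 was at -0.47 (adjusted p = 0.0772) and Sdf2l1 at 0.00 (adjusted p = 0.998). Without the pancreas libraries Hsp90b1, Dnajc3 and Herpud1 passed, against 9.36% of all genes lower. With equal FPKM sums Herpud1 alone did, against 3.1% of all genes lower.

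In CryDKO the genes that passed as lower were Creld2 (-0.89 ± 0.29, adjusted p = 0.00658), Herpud1 (-0.87 ± 0.15, adjusted p = 4.4e-06), Manf (-0.86 ± 0.25, adjusted p = 0.00238), Sdf2l1 (-0.78 ± 0.28, adjusted p = 0.0144), Hspa5 (-0.62 ± 0.18, adjusted p = 0.0035) and Dnajb9 (-0.52 ± 0.21, adjusted p = 0.0277). Hsp90b1 (-0.08), Hyou1 (-0.02), Pdia4 (-0.28) and Dnajc3 (0.14) did not pass, but Dnajc3 passed as higher with GC and length corrected (0.17 ± 0.07, adjusted p = 0.0375) and with equal FPKM sums (0.32 ± 0.09, adjusted p = 0.00164). This count rested on WT at ZT16. Without the 4 WT ZT16 libraries Herpud1 was the 1 member that passed, against 25.7% of all genes lower. Without all 10 with pancreas transcripts it was again the 1 member (-0.71, adjusted p = 0.000354), against 23.2% of all genes lower. Neither count was above the background. Of the acute phase genes 5 of 9 were lower in CryDKO, against 31% of all genes, and 4 of 9 in ReverbLDKO, against 27.7%, and their part in the results was not tested.

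**Figure D2:**
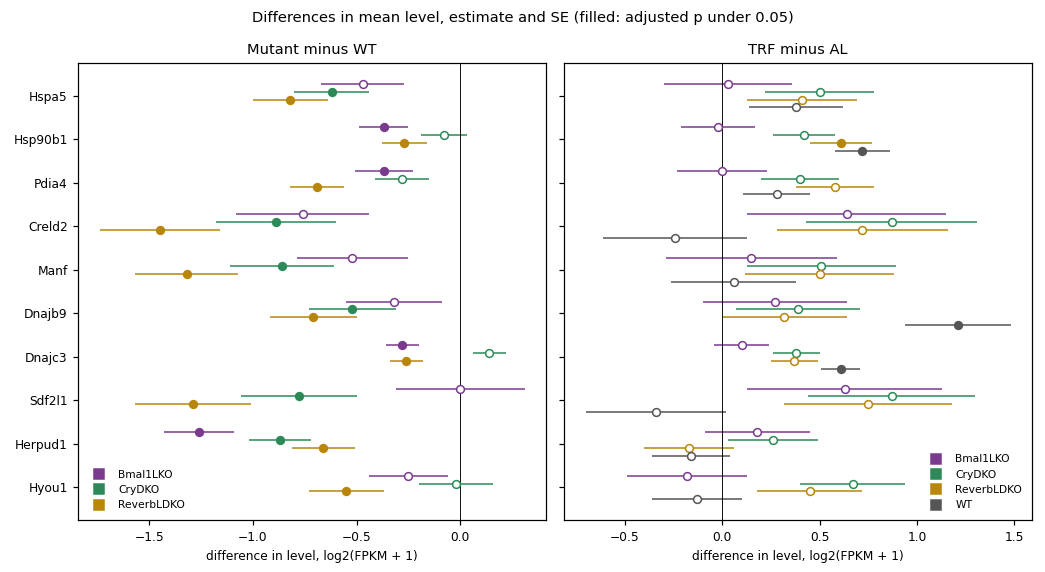
Differences in mean level of the 10 genes on the log2(FPKM + 1) scale, with mutant minus WT on the left and TRF minus AL within each genotype on the right. Points are estimates, bars are SE and filled points passed at an adjusted p under 0.05, and all 10 ReverbLDKO points on the left lie below 0 and are filled.

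Feeding changed few members in mean level. In WT, Dnajb9, Hsp90b1 and Dnajc3 were higher under TRF, 3 of 10 against 28.6% of all genes, and the other 7 did not pass. Dnajb9 had a lowest, median and highest value of 23.28, 78.75 and 377.8 FPKM in WT TRF and 12.15, 43.23 and 161.3 FPKM in WT AL. The ranges overlapped, but its TRF mean was above its AL mean at all 6 times. The difference was 1.21 ± 0.27 (11 against 12 libraries, adjusted p = 0.000149), with Hsp90b1 at 0.72 ± 0.14 (adjusted p = 1e-05) and Dnajc3 at 0.61 ± 0.10 (adjusted p = 7.78e-07). A share of 3 in 10 is near the background, and these 3 genes have the lowest GC content of the 10. With GC content and length corrected per library, Dnajb9 passed (0.64 ± 0.22, adjusted p = 0.0203), and Hsp90b1 (0.17 ± 0.13, adjusted p = 0.329) and Dnajc3 (0.11 ± 0.09, adjusted p = 0.379) did not. The share of all genes that passed was then 8.85% higher and 30.1% lower, against 28.6 and 35.4% without the correction. Sdf2l1 was lower under TRF at 6 of 6 times in WT, and its difference of -0.34 ± 0.36 did not pass (adjusted p = 0.431). Sdf2l1 has the highest GC content of the 10 (56.7%), and with the correction its difference had the other sign, 0.36 ± 0.32 (adjusted p = 0.4).

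Within the mutants, Hsp90b1 in ReverbLDKO was the 1 member that passed, as higher under TRF, against 1.08% of all genes. It had a lowest, median and highest value of 176.8, 321.6 and 476.2 FPKM under TRF and 165.8, 192.8 and 232.7 FPKM under AL. The TRF median lay above the highest AL library, and the lowest TRF libraries overlapped AL. The difference was 0.61 ± 0.16 (8 libraries each, adjusted p = 0.0233), and it did not pass without any 1 of ReverbLDKO AL ZT12 or ZT21, or ReverbLDKO TRF ZT3, ZT15 or ZT24, nor without the libraries with pancreas transcripts (0.58, adjusted p = 0.0939) or those with the highest Saa1 (0.54, adjusted p = 0.101). Pdia4 (0.58, adjusted p = 0.0919) and Dnajc3 (0.37, adjusted p = 0.0699) did not pass, and the median of the 10 was 0.47 against -0.03 over all genes. Of the acute phase genes, 3 of 9 were higher under TRF in ReverbLDKO, against 1.08% of all genes, and their part was not tested. The ratio of mt-Nd6 to mt-Nd5 also separated TRF from AL in ReverbLDKO. Hsp90b1 shares 415 exon bases with a gene on the opposite strand, and the part of strand handling in its difference was not tested.

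In CryDKO 0 of 10 passed by limma, against 0.0201% of all genes in either direction, although the median was 0.46 against 0.02 and 4 (Hsp90b1, Pdia4, Dnajc3 and Hyou1) had an unadjusted p under 0.05. In Bmal1LKO 0 of 10 passed, against 0.0402% of all genes, and 0 had an unadjusted p under 0.05. The feeding effect differed between the 4 genotypes for Hsp90b1 (adjusted p = 0.038, against 47.2% of all genes), whose values were -0.02 in Bmal1LKO, 0.42 in CryDKO, 0.61 in ReverbLDKO and 0.72 in WT. With GC and length corrected this did not pass (adjusted p = 0.134).

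The observed feeding difference varied between the sampled hours. In ReverbLDKO all 10 genes were higher under TRF than under AL at each of ZT15, 18, 21 and 24, with median differences of 0.61, 0.64, 1.36 and 1.22, from 1 library per feeding and time. At ZT12 the count was 1 of 10 and at ZT9 it was 2 of 10. In CryDKO all 10 were higher under TRF at ZT18, 21 and 24, with medians of 0.91, 0.27 and 1.70, and 1 of 10 was higher at ZT12, with a median of -0.84. In Bmal1LKO 9 of 10 were higher at ZT20 and at ZT24, with medians of 0.59 and 0.33. WT showed another order, with 9 of 10 higher at ZT8 and 8 at ZT16 but 3 at ZT20. Single pairs of libraries carry no replicate error, so these counts are descriptions. No share of all genes is given for these hours. FPKM sums also differed within pairs, with 518091 under TRF and 398916 under AL in ReverbLDKO at ZT15, and their part was not tested. The direct test of rhythm between feedings, given below, passed for 0 of 10 in WT, Bmal1LKO and ReverbLDKO and for 1 in CryDKO.

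Most members were rhythmic in ReverbLDKO under TRF. In ReverbLDKO under TRF 7 of the 10 genes passed the test for a 24 h rhythm, against 3.95% of all genes, and under AL 0 of 10 passed by limma, against 0.0301%, with 0 at an unadjusted p under 0.05. Amplitudes (from mean to peak, log2 scale) under TRF were 0.69 to 1.56 with a median of 1.17, against 0.17 for all genes, and under AL 0.16 to 0.47 with a median of 0.31, against 0.10.

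Hspa5 illustrates this rhythm. In ReverbLDKO under TRF it had 287.6, 102.6, 104.2 and 94.78 FPKM at ZT3, 6, 9 and 12, and 393.8, 343.2, 467.3 and 489.8 FPKM at ZT15, 18, 21 and 24. The 4 later libraries were all above the 4 earlier ones, without overlap. Under AL it had 150.7, 133.5, 148.7 and 142.1 FPKM at ZT3 to ZT12 and 240.9, 245.2, 168 and 215.8 FPKM at ZT15 to ZT24. These later libraries were also higher, by a smaller step. The fitted amplitude was 1.26 ± 0.28 with a peak at ZT21.0 under TRF (adjusted p = 0.014) and 0.37 ± 0.28 under AL (adjusted p = 1).

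Creld2 took a like course under TRF in ReverbLDKO, at 45.71, 9.42, 9.51 and 9.57 FPKM at ZT3 to ZT12 and 68.57, 57.02, 71.49 and 53.80 FPKM at ZT15 to ZT24. Its ZT6 to ZT12 libraries were all under the lowest AL library (13.11 FPKM). Its amplitude of 1.56 ± 0.44 did not pass (adjusted p = 0.078). The genes that passed with Hspa5 were Hyou1 (1.38, peak ZT21.4, adjusted p = 0.00386), Manf (1.53, ZT21.1, adjusted p = 0.0316), Pdia4 (0.99, ZT22.3, adjusted p = 0.00512), Hsp90b1 (0.71, ZT22.3, adjusted p = 0.0155), Dnajc3 (0.69, ZT22.7, adjusted p = 0.000733) and Herpud1 (0.94, ZT17.6, adjusted p = 0.0323). All 10 had an unadjusted p under 0.05. Without the libraries with pancreas transcripts, or without the 4 WT ZT16 ones, 10 of 10 passed, against 6.29 and 7.96% of all genes. Without the 4 libraries with the highest Saa1, which include ReverbLDKO TRF at ZT15 and ZT18, 5 of 10 passed, against 1.44% of all genes, with adjusted p up to 0.321. Leaving out ReverbLDKO TRF ZT9 left 3, and leaving out ZT6, ZT12 or ZT24 left 4.

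The difference in rhythm between the feedings was tested directly. In ReverbLDKO 0 of 10 passed by limma, against 0% of all genes, and 5 had an unadjusted p under 0.05. Fitted on the 2 ReverbLDKO groups alone, 4 passed. No share of all genes is given for that fit, so the 4 cannot be set against a background. In CryDKO Dnajc3 passed (amplitude of the difference 0.79 ± 0.17, adjusted p = 0.0166, against 1.31% of all genes), but not without any 1 of CryDKO AL ZT24, CryDKO TRF ZT3 or CryDKO TRF ZT12. In Bmal1LKO and in WT 0 of 10 passed by limma, against 0% of all genes in each, with 1 and 4 at an unadjusted p under 0.05. Hsp90b1 came nearest in WT (1.00 ± 0.19, adjusted p = 0.192).

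**Figure D3:**
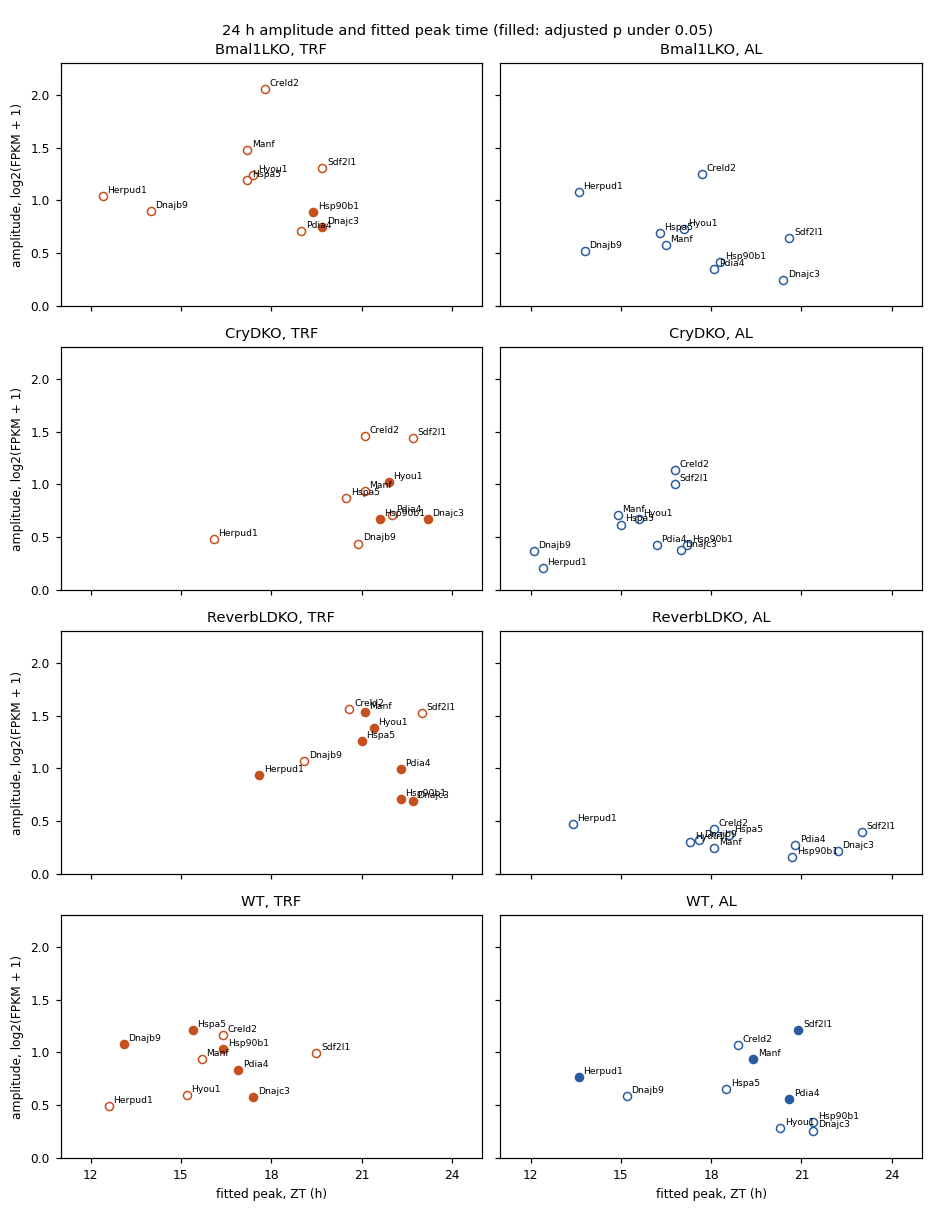
Amplitude of the 24 h rhythm, log2(FPKM + 1), against the fitted peak time in ZT hours for the 10 genes in each genotype (rows), under TRF (left) and AL (right). Filled points passed at an adjusted p under 0.05, and median amplitudes are 1.17 under TRF and 0.31 under AL in ReverbLDKO.

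In Bmal1LKO, CryDKO and WT the fitted peaks lay between ZT12.1 and ZT23.2. In Bmal1LKO under TRF Hsp90b1 (0.89, ZT19.4, adjusted p = 0.03) and Dnajc3 (0.75, ZT19.7, adjusted p = 0.00995) passed, 2 of 10 against 0.512% of all genes. The steepest fitted rhythm of all was Creld2 there, 2.05 ± 0.51 with 1 library per time (adjusted p = 0.103). Both calls were lost without any 1 of the Bmal1LKO TRF libraries at ZT8, ZT16 or ZT20, and 7 of 10 passed without the 4 WT ZT16 libraries, against 2.9% of all genes. Under AL 0 of 10 passed by limma in Bmal1LKO, against 0.0301%, with 1 at an unadjusted p under 0.05.

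In CryDKO under TRF 3 of 10 passed, against 7.23% of all genes: Dnajc3 (0.67, ZT23.2, adjusted p = 0.000839), Hsp90b1 (0.67, ZT21.6, adjusted p = 0.0181) and Hyou1 (1.02, ZT21.9, adjusted p = 0.0366). The count was 1 without CryDKO TRF ZT12, and 7 without CryDKO TRF ZT21 or without the 4 WT ZT16 libraries (14.7% of all genes without the 4). Under AL 0 of 10 passed by limma in CryDKO, against 0.0502%, with 3 at an unadjusted p under 0.05.

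In WT under TRF 5 of 10 passed, against 20% of all genes: Hspa5 (1.21 ± 0.24, ZT15.4, adjusted p = 0.00146), Hsp90b1 (1.03, ZT16.4, adjusted p = 1.98e-06), Pdia4 (0.83, ZT16.9, adjusted p = 0.00146), Dnajb9 (1.08, ZT13.1, adjusted p = 0.0186) and Dnajc3 (0.58, ZT17.4, adjusted p = 0.00016). In WT under AL 4 of 10 passed, against 29.7%: Sdf2l1 (1.21, ZT20.9, adjusted p = 0.0283), Manf (0.94, ZT19.4, adjusted p = 0.0493), Herpud1 (0.77, ZT13.6, adjusted p = 0.0106) and Pdia4 (0.56, ZT20.6, adjusted p = 0.0266). Without the pancreas libraries the counts were 3 (Hsp90b1, Dnajc3 and Sdf2l1) under TRF, against 41.4% of all genes, and 2 under AL, against 28.8%, so neither count was above the background.

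Median fitted peaks under TRF were ZT17.6 in Bmal1LKO, ZT21.4 in CryDKO, ZT21.2 in ReverbLDKO and ZT16.0 in WT, and these differences were not tested. The fitted peak of the degradation gene Herpud1 was at ZT12.4 to ZT17.6, before that of the median member in each of the 8 groups, but its rhythm passed in 2 of them, ReverbLDKO TRF and WT AL. In CryDKO AL the amplitude of Herpud1 was 0.21 ± 0.23, so its peak time there rests on no rhythm that passed. An early peak was not particular to Herpud1. Dnajb9 and Manf also peaked before the median member in each of the 8 groups. In CryDKO AL the fitted peak of Dnajb9, at ZT12.1, was before that of Herpud1.

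**Figure D4:**
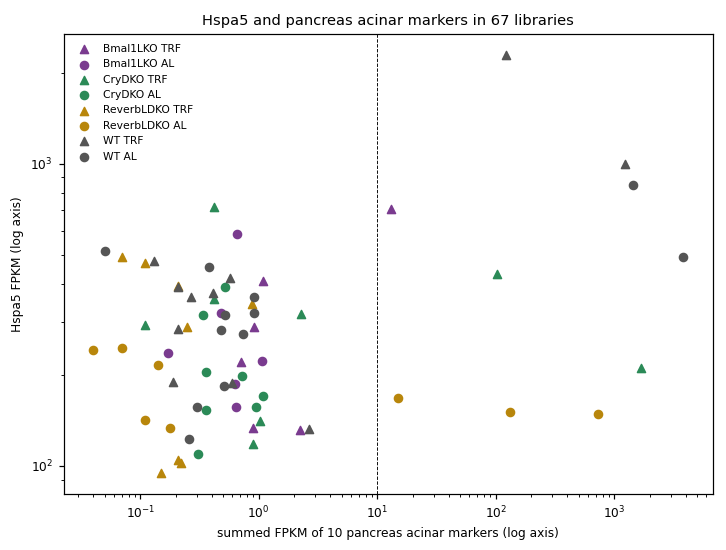
Hspa5 FPKM against the summed FPKM of 10 pancreas acinar markers in the 67 libraries (both axes log, dashed line at 10 FPKM), with color for genotype, triangles for TRF and circles for AL. Of the 10 libraries right of the line, the 4 WT ones run from 491.2 to 2281 FPKM of Hspa5, and the 3 ReverbLDKO ones from 148.7 to 168 FPKM.

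Acinar transcripts were set beside the members by library, and their part in the results was not tested. The marker sum ran from 0.71 to 13.02 FPKM in Bmal1LKO TRF and from 0.17 to 1.06 FPKM in Bmal1LKO AL, from 0.11 to 1683.88 FPKM in CryDKO TRF and 0.31 to 1.09 FPKM in CryDKO AL, and from 0.07 to 0.87 FPKM in ReverbLDKO TRF and 0.04 to 723.17 FPKM in ReverbLDKO AL. In WT it ran from 0.13 to 1223.15 FPKM under TRF and 0.05 to 3828.35 FPKM under AL, and the defining markers Prss2, Cpa1 and Clps were at 0 in the lowest library of every group. In the Bmal1LKO library with them (TRF ZT16, marker sum 13.02) Hspa5 was at 705.3 FPKM, and 7 of the 10 members had their highest value of the group there. The 2 CryDKO TRF libraries had 210.1 FPKM at ZT9 (marker sum 1684) and 432.3 FPKM at ZT24 (marker sum 103.2), and neither held the highest value of its group for any member, but the ZT24 library was among the 2 highest of its group for 7 of 10 members and the ZT9 library for 0. The 3 ReverbLDKO AL libraries, at ZT3, ZT9 and ZT21 (marker sums 132.5, 723.2 and 15.05), had 150.7, 148.7 and 168 FPKM, within the range of their group. In WT TRF at ZT16, Hspa5 was at 996.7 FPKM with a marker sum of 1223 and at 2281 FPKM with a marker sum of 121.1. In WT AL at ZT16 it was at 491.2 FPKM with 3828 and at 850.9 FPKM with 1451. Creld2 was at 360.8 FPKM with a marker sum of 1223 and at 335.7 FPKM with 121.1 under TRF, and at 117.2 FPKM with 3828 and 467 FPKM with 1451 under AL. These 4 libraries were among the 2 highest of their group for 8 and 10 members under TRF and for 3 and 7 under AL.

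A 12 h component, shared by all groups, passed for 6 of the 10 genes, against 0.593% of all genes. The fitted crests fell within ZT3.7 to ZT5.2 for all 10 genes and, by the form of the fit, again 12 h later. A 12 h term beside a 24 h cosine can also take up the shape of 1 sharp daily peak. The test cannot tell this from 2 peaks a day. In WT and Bmal1LKO the ZT4 libraries held the highest value of their group for 0 members. Creld2 (amplitude 0.67 ± 0.12, adjusted p = 0.0123) and Sdf2l1 (0.65 ± 0.12, adjusted p = 0.0123) had the greatest, then Manf (0.54, adjusted p = 0.0183), Hspa5 (0.41 ± 0.08, adjusted p = 0.0176), Hyou1 (0.38, adjusted p = 0.0266) and Pdia4 (0.30, adjusted p = 0.0123). Dnajb9 (0.37, adjusted p = 0.132), Herpud1 (0.22, adjusted p = 0.256), Hsp90b1 (0.20, adjusted p = 0.0867) and Dnajc3 (0.13, adjusted p = 0.145) did not pass, and the median over all genes was 0.07.

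This result turned on a few libraries. Without the 10 libraries with pancreas transcripts 0 of 10 passed by limma, with amplitudes of 0.15 to 0.57, adjusted p of 0.0764 to 0.621 and 9 at an unadjusted p under 0.05, against 0.0201% of all genes that passed. Without the 4 WT ZT16 libraries 0 passed, with amplitudes of 0.13 to 0.51 and 8 at an unadjusted p under 0.05, against 0.171% of all genes that passed. Without the 4 libraries with the highest Saa1 0 passed as well (adjusted p of 0.0571 to 0.299), with 10 at an unadjusted p under 0.05, against 0% of all genes that passed. With GC and length corrected 9 passed, against 2.96%. Fitted per group with no test, Creld2 had 12 h amplitudes of 0.60 and 0.70 in Bmal1LKO, 0.71 and 0.53 in CryDKO, 0.52 and 0.27 in ReverbLDKO, and 1.12 and 0.96 in WT, under TRF and AL in each case. Times were 4 h apart in Bmal1LKO and WT and 3 h apart in CryDKO and ReverbLDKO.

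**Figure D5:**
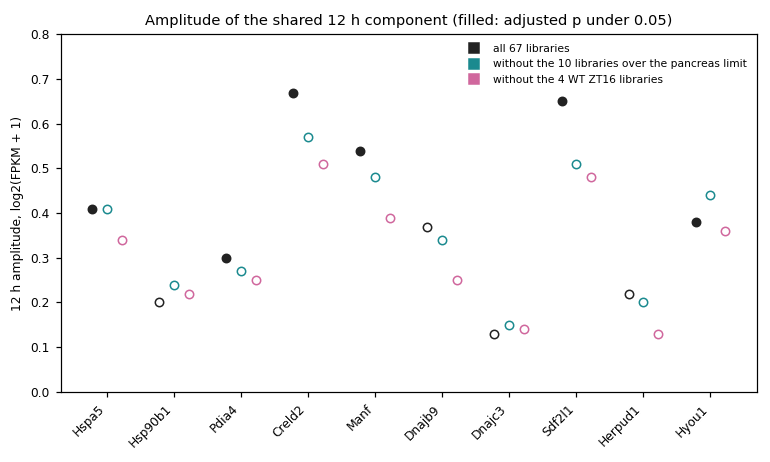
Amplitude of the shared 12 h component, log2(FPKM + 1), for the 10 genes with all 67 libraries, without the 10 libraries with pancreas transcripts and without the 4 WT ZT16 libraries. Filled points passed at an adjusted p under 0.05, which 6 genes did with all libraries and 0 in the other settings, where Creld2 stood at 0.57 and 0.51 against 0.67.

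Other genes of the pathway were counted from lists. In ReverbLDKO 27.7% of all genes were lower and 30.1% higher. Among 13 sensors and transcription factors, 3 were lower in ReverbLDKO, the effectors Atf4 (-0.58 ± 0.13, adjusted p = 0.000285), Ddit3 (-0.43 ± 0.16, adjusted p = 0.0183) and Xbp1 (-0.41 ± 0.12, adjusted p = 0.00312). The 4 higher ones were the ATF6-cleaving proteases Mbtps1 (0.31) and Mbtps2 (0.11), Atf6 itself (0.31) and Eif2ak3 (0.23), which encodes PERK. Of 20 other folding genes 10 were lower and 2 higher in ReverbLDKO. The lower ones included Pdia3 (-0.57 ± 0.11, adjusted p = 3.35e-05) and Pdia5 (-0.54), both disulfide isomerases, the chaperone Calr (-0.46) and Sdf2 (-0.61). Of 21 genes of ERAD and the translocon 9 were lower and 5 higher, with Derl3 (-1.06), a derlin of ERAD, and Sec61b (-0.82), a subunit of the translocon, lowest. Of 8 targets of PERK and ATF4, 1 was lower and 1 higher (Atf5, 0.47).

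In CryDKO, where 34.4% of all genes were higher and 31% lower, 8 sensors were higher and 2 lower (Atf4 -0.48, Ddit3 -0.45), 5 folding genes higher and 9 lower (P4hb -0.76, Pdia3 -0.51), and 5 ERAD genes higher and 9 lower (Derl3 -0.85, Sec61b -0.82). In Bmal1LKO, where 19.7% of all genes were higher and 7.66% lower, few passed, with 2 sensors higher (Atf6b 0.55, Mbtps2 0.15), 1 folding gene higher and 2 lower, and 2 ERAD genes higher. The feeding effect in ReverbLDKO passed for 5 of 20 folding genes, all higher under TRF, against 1.08% of all genes, with Pdia5 (0.79 ± 0.18, adjusted p = 0.00534), Pdia3 (0.64 ± 0.17, adjusted p = 0.0222), Erp44 (0.52) and the lectin chaperone Canx (0.38). In WT 10 folding genes were higher and 4 lower under TRF, against 28.6 and 35.4% of all genes, and 4 and 2 with GC and length corrected, against 8.85 and 30.1%.

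Of the 20 folding genes, 7 were rhythmic in CryDKO TRF, 10 in ReverbLDKO TRF, 13 in WT TRF and 6 in WT AL, against 7.23, 3.95, 20 and 29.7% of all genes. The WT AL count is at the background. Calr had an amplitude of 0.94 with a peak at ZT23.3 in ReverbLDKO TRF (adjusted p = 0.000384) and of 0.95 at ZT23.8 in CryDKO TRF (adjusted p = 0.000268). Dnajb11 had 0.80 at ZT22.2 (adjusted p = 0.00609) and 0.97 at ZT23.0 (adjusted p = 0.000494) in the same groups. In CryDKO the rhythm differed between feedings for 4 folding genes, against 1.31% of all genes: Calr (1.20), Dnajb11 (1.18), Pdia6 (1.03) and Uggt1 (0.79). The 12 h component passed for Dnajb11 (0.23), Calr (0.20) and Syvn1 (0.38), the HRD1 ligase, and for 0 of 13 sensors by limma, 4 of which had an unadjusted p under 0.05, among them Xbp1 at 0.21 (adjusted p = 0.105) and Atf4 at 0.25 (adjusted p = 0.085).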

How the data were processed

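Liver RNA of 67 libraries was prepared with an RNeasy kit and made into stranded polyA libraries, per the labels' protocols. The authors deposited 1 table of FPKM values for 45808 gene rows, and STAR, featureCounts, DESeq2 and GRCm38 are named in the submitters' processing notes, without versions or the strand setting. Low FPKM values fell on whole multiples of 1 read (84.1 to 88.2% of values up to 20 reads came out whole, tolerance 0.1), which gave the depths stated. FPKM sums ran from 385963 to 1096460 per library.

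All differences are on the log2(FPKM + 1) scale, which understates changes of genes with low values. Tests covered 9955 genes averaging 1 FPKM or more, the 10 members included. One limma fit (3.58.1, R 4.3.3, trended empirical Bayes, Benjamini-Hochberg adjustment over all genes, threshold 0.05) gave each group a level and a 24 h cosine and sine. Feeding effects are TRF minus AL, genotype effects mutant minus WT averaged over feedings, and rhythms F tests of cosine and sine. A second fit added a 12 h cosine and sine shared by all groups. The fit was tested on simulated data. The members and lists were chosen with earlier results of these data known, so their counts against the share of all genes are descriptions. Named genes are the 10 members, the sensors and up to 4 genes per other list and test that passed, with a mean of at least 5 FPKM and the greatest size. GC content was at hand for 9581 of the tested genes. Promoters came from RefSeq (GRCm38.p6), and exon overlaps and positions from the GRCm38 annotation. Plots used Python 3.11.15 and matplotlib 3.10.9.

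Alternatives were another pseudocount, no filter, other scalings, a correction for GC and length, other fits, a replicate block, and leaving out libraries. One gene with a pattern like that of the members is not reported here.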

Additional observations from a re-analysis of the deposited data

Results flagged for a closer look

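The summed FPKM of 10 pancreas acinar markers had 1 library far from the others of its group in 4 of the 6 groups of 4 to 10 libraries. These were Bmal1LKO TRF ZT16 (13.02, next 2.21), CryDKO TRF ZT9 (1683.9, next 103.2), ReverbLDKO TRF ZT18 (0.87, next 0.25) and ReverbLDKO AL ZT9 (723.17, next 132.5). Saa1 did so in 3 groups, in Bmal1LKO TRF ZT24 (7838.7 FPKM, next 2619), CryDKO TRF ZT3 (41908 FPKM, next 3147) and CryDKO AL ZT21 (2161.3 FPKM, next 231.6). Of 12 marker and group pairs, 7 were marked, on raw FPKM. Chance is taken to mark about 1 in 20 groups, but this rate may not hold for such skewed values. The marker count is therefore not compared with the count for members. Of the 60 pairs of a member and a group, 0 were marked, against 3.0 expected by chance.

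The feeding effect on Hsp90b1 differed between genotypes (adjusted p = 0.038, limma), and the feeding difference in the rhythm of Dnajc3 in CryDKO passed (adjusted p = 0.0166, limma).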

How the results depend on the processing

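Over 82 settings and 21 comparisons, 16550 results for single members kept their side of the threshold in 16074 cases, lost the call in 276 and gained it in 200. Of the 5590 signed differences among them, 91 had the other sign, for 16 pairs of a member and a comparison, and 0 of these passed the test either way. Of the 82 settings, 69 left out 1 library or 1 WT replicate number. Most results that kept their side passed neither in the main fit nor in the alternative. The pooled count therefore does not measure how well the calls held. With GC and length corrected, the WT feeding difference was 0.36 for Sdf2l1, 0.25 for Creld2, 0.10 for Herpud1 and 0.01 for Hyou1, against -0.34, -0.24, -0.16 and -0.13 without. The limits are single libraries per time in the mutants, WT ZT16 libraries with pancreas transcripts, and a GC slope that moves with feeding in WT. A further limit is the ratio of mt-Nd6 to mt-Nd5, which separated TRF from AL in both ReverbLDKO and WT. It also separated every mutant from WT under AL, and ReverbLDKO from WT under TRF. The genotype comparisons therefore share this limit. The counts of members that pass follow, and the cause of a change was not tested. They are given without the share of all genes, which also moved with the setting. For rhythm in WT TRF that share was 20%, and 41.4% without the libraries with pancreas transcripts. For rhythm in CryDKO TRF it was 7.23%, and 14.7% without the 4 WT ZT16 libraries. A change in a count is therefore not by itself a result about the members.

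Without the libraries with pancreas transcripts, 0 passed for the 12 h component, 0 for feeding in ReverbLDKO and for its difference between genotypes, 1 for genotype in CryDKO, and for rhythm 1 in Bmal1LKO TRF, 3 in WT TRF and 2 in WT AL. Without the 4 WT ZT16 libraries the values were 0 for 12 h, 3 for feeding in ReverbLDKO, 3 for its difference between genotypes, 1 for genotype in CryDKO, and for rhythm 7 in Bmal1LKO TRF, 7 in CryDKO TRF and 3 in WT TRF. Without the 4 libraries with the highest Saa1 they were 0 for 12 h, 0 for feeding in ReverbLDKO, 0 for its difference between genotypes, 0 for the rhythm difference in CryDKO and 1 for that in WT. With equal FPKM sums they were 3 for 12 h, 0 for feeding in ReverbLDKO, 3 for its difference between genotypes, 1 for genotype in Bmal1LKO, 0 for the rhythm difference in CryDKO, and for rhythm 0 in Bmal1LKO TRF, 7 in CryDKO TRF and 2 in WT AL. With GC and length corrected they were 1 for feeding in WT, 0 for its difference between genotypes, and for rhythm 6 in CryDKO TRF and 2 in WT AL.

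With no filter on low values, 3 passed for 12 h, 0 for the test of feeding between genotypes, and for rhythm 4 in Bmal1LKO TRF and 1 in WT AL. With only the groups compared, 5 passed for feeding in ReverbLDKO, 2 for genotype in Bmal1LKO, for rhythm 0 in Bmal1LKO TRF, 2 in WT TRF and 0 in WT AL, and for the rhythm difference 0 in CryDKO and 4 in ReverbLDKO. Median-of-ratios scaling gave 3 for feeding in ReverbLDKO and 2 for its difference between genotypes, and both were 0 with no time terms and with times as categories.

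Leaving out 1 library or 1 WT replicate number gave 0 to 3 for feeding in ReverbLDKO, 2 to 4 in WT and 0 to 3 for its difference between genotypes. For genotype it gave 1 to 8 in Bmal1LKO, 3 to 7 in CryDKO and 7 to 10 in ReverbLDKO. For rhythm it gave 0 to 7 in Bmal1LKO TRF, 1 to 7 in CryDKO TRF, 3 to 10 in ReverbLDKO TRF, 3 to 8 in WT TRF and 0 to 6 in WT AL, for the rhythm difference 0 to 2 in CryDKO and 0 to 1 in WT, and 1 to 6 for 12 h. The test of feeding between genotypes moved from 1 in 25 of 69 such settings. Without WT replicate 1 the counts were 1 for 12 h and 8 for genotype in Bmal1LKO, and without WT replicate 2 they were 2 for 12 h, 1 for genotype in Bmal1LKO and 3 for it in CryDKO. Feeding in ReverbLDKO was 2 without WT TRF ZT4 replicate 2 or CryDKO TRF ZT18. Rhythm in Bmal1LKO TRF was 1 without its ZT12, and that in CryDKO TRF was 6 without WT AL ZT16 replicate 2 and 5 without WT TRF ZT12. WT AL rhythm was 1 without WT AL ZT8 or ZT12 replicate 1 and 2 without ZT20 replicate 1. WT TRF rhythm was 8 without WT TRF ZT4 replicate 2 or WT AL ZT16 replicate 2.

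At each time with both WT replicates, the replicate 1 minus replicate 2 difference under TRF was correlated over genes with that under AL. The correlations were 0.398, 0.626, 0.609 and 0.544 at ZT4, ZT8, ZT16 and ZT20 and -0.287 at ZT24. Since 1 of the 5 was not positive, the numbers were not taken as pairs. The numbers went with a technical measure all the same: GC slopes in WT TRF were -1.05 to -0.52 in replicate 2 and -0.39 to 0.14 in replicate 1. A replicate block gave 3 for feeding in WT, 5 and 6 for rhythm in WT TRF and WT AL, and 4, 6 and 10 for genotype in Bmal1LKO, CryDKO and ReverbLDKO. The block with GC and length corrected gave 1 for feeding in WT.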
